A study of Drosophila melanogaster with 2 samples.

Results

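Peaks of the zinc-finger protein Bowl at 8 forkhead genes of Drosophila melanogaster are described here: CHES-1-like, jumu, slp1, slp2, fkh, bin, croc and foxo. The genes were chosen from the peak counts of these same lists, because CHES-1-like carried so many peaks, so every count at them is a description and no test was run on it. A peak was given to a gene if its summit (the position of its highest signal) lay in the gene body, or if, among protein-coding genes, that gene had the transcription start site (TSS) nearest to it. By this rule the 8 genes held 13 of the 2198 peaks of the pooled list, and 3 of the 8 had a peak. Of all 13986 protein-coding genes, 1824 (13.0%) had one. CHES-1-like alone held 10 of the 13 peaks, foxo held 2 and slp2 held 1. No listed peak fell to jumu, slp1, fkh, bin or croc.

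Chromatin immunoprecipitation followed by sequencing (ChIP-seq) was carried out on whole embryos aged 0 to 24 h of the strain bowl-GFP, which carries a transgene for a fusion of Bowl with the green fluorescent protein eGFP. Sonicated chromatin, for which the labels state sizes of 200 to 800 without a unit, was precipitated with anti-GFP antibody. There is 1 group, Bowl-eGFP embryos, with 2 biological replicates. Both carry the transgene, and a control named in the labels was not analysed here. A whole embryo mixes all cell types, and 0 to 24 h mixes all stages of embryogenesis, so a peak here has no cell type or stage.

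Bowl belongs to the odd-skipped family of zinc-finger transcription factors, which act in embryonic segmentation, gut and leg development. Forkhead factors bind DNA through a winged-helix domain and control cell fate, organ formation and metabolism. Several are selectors of embryonic tissues: fkh of the salivary glands and the ends of the gut, bin of the visceral mesoderm, croc of parts of the head, and slp1 and slp2 of the body segments. CHES-1-like and jumu act together in the divisions of heart progenitors in Drosophila, and foxo is the effector of insulin signalling that acts when nutrients are scarce.

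Peaks here are regions in a thresholded list, and candidates are all regions in the ranked list from which it was cut, as the authors deposited them. The pooled list held 2198 of 132019 candidates. Smaller lists were the conservative list of 1557 peaks, which was cut from a comparison of the replicates, the replicate 1 list of 1662 peaks and the replicate 2 list of 772 peaks. Peak signal is the authors' score for a region and has no stated scale. Its median was 82.6 over the pooled peaks and 18.4 over the candidates below the threshold. The irreproducible discovery rate (IDR) is the expected share of regions that do not repeat among those ranked at least as high. Its −log10 was 2 or more for all listed peaks, and its scale is capped at 5. Only in the conservative list is it read here as repetition between the 2 replicates.

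The strongest regions are shown first, since they carried the highest scores at these genes. All sequences are from the RefSeq Release 6 genome (the dm6 assembly), plus strand, 5′ to 3′. CHES-1-like lies on the minus strand, so its lines read against the direction of the gene. Capitals mark any of 6 words searched on both strands within 100 bp of a summit: TAAACA (the forkhead core), CAGTAGC (the core of the odd-skipped family), ACAGTGG, CACTGTGC, CACAGTGG and GAGAGAG. The word ACAGTGG is contained in CACAGTGG, and CACTGTGC overlaps the reverse complement of CACAGTGG. The first 3 lines are whole peaks, narrower than most peaks of the list. The last is the 101 bp around the summit of the next CHES-1-like peak in order of signal.
CHES-1-like, strongest peak, intron 1 of transcript RC, chrX:7706884-7707083: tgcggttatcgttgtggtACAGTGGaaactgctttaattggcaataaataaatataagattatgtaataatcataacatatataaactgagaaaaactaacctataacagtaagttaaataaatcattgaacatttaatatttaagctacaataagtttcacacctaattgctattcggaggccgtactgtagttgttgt
CHES-1-like, second strongest peak, intron 1 of transcripts RC and RB, chrX:7700355-7700475: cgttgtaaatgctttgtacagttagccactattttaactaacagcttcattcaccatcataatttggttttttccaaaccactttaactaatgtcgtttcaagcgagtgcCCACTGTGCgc
foxo, strongest peak, intergenic and upstream of the gene, chr3R:14053507-14053677: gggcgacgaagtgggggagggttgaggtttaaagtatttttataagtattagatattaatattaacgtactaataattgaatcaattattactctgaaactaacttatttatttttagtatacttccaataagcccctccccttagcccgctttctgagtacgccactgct
CHES-1-like, next peak by signal, intron 1 of transcripts RC and RB, chrX:7698368-7698468: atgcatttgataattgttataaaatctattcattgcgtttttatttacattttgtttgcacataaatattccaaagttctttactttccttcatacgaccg
The first line holds 1 copy of ACAGTGG, which lay 81 bp from the summit. In the second, one run of capitals holds the reverse complement of ACAGTGG, 56 bp from the summit, where CACTGTGC and the reverse complement of CACAGTGG overlap it. The last 2 lines hold none of the 6 words. Guanine and cytosine made up 29.4%, 42.3% and 27.9% of the sequence within 100 bp of the 3 CHES-1-like summits, in the order shown, and 38.8% at the foxo summit, against a median of 38.3% over all pooled peaks.

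CHES-1-like (FBgn0029504; X, 7682338 to 7709385, minus strand, 27048 bp) encodes a forkhead protein related to the vertebrate FoxN2 and FoxN3 proteins. Its 4 annotated transcripts, RC, RB, RA and RD, each have 6 exons, and their coding sequences have the same outer limits (7685918 to 7689995). The first exon differs between the 4 and is noncoding in each. Ends of later exons also differ: the last exon has 3 different ends, and 1 coding exon has a slightly different boundary in RC. Transcript RC starts first, at 7709385, and the starts of RB, RA and RD lie 4422, 12681 and 14467 bp farther downstream. Intron 1 of RC therefore spans 18998 bp and contains the first exons of the other transcripts.

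All 10 peaks lay in the first 18536 bp of the gene, counted from the start of RC. Intron 1 of RC held 9 of them, 4.74 per 10 kb, and the tenth lay in its first exon. For RB, 7 peaks lay in intron 1 (14781 bp) and 3 upstream of the start. For RA and for RD, 2 peaks lay in intron 1 (6480 and 4789 bp) and 8 upstream of the start. The same peak is thus intronic for one transcript and upstream of another, and the lists do not tell which transcript it belongs to. Exons 2 to 6 and the introns between them span 7659 bp and held 7 candidates but no peak, with a highest signal of 32.9.

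**Figure D1:**
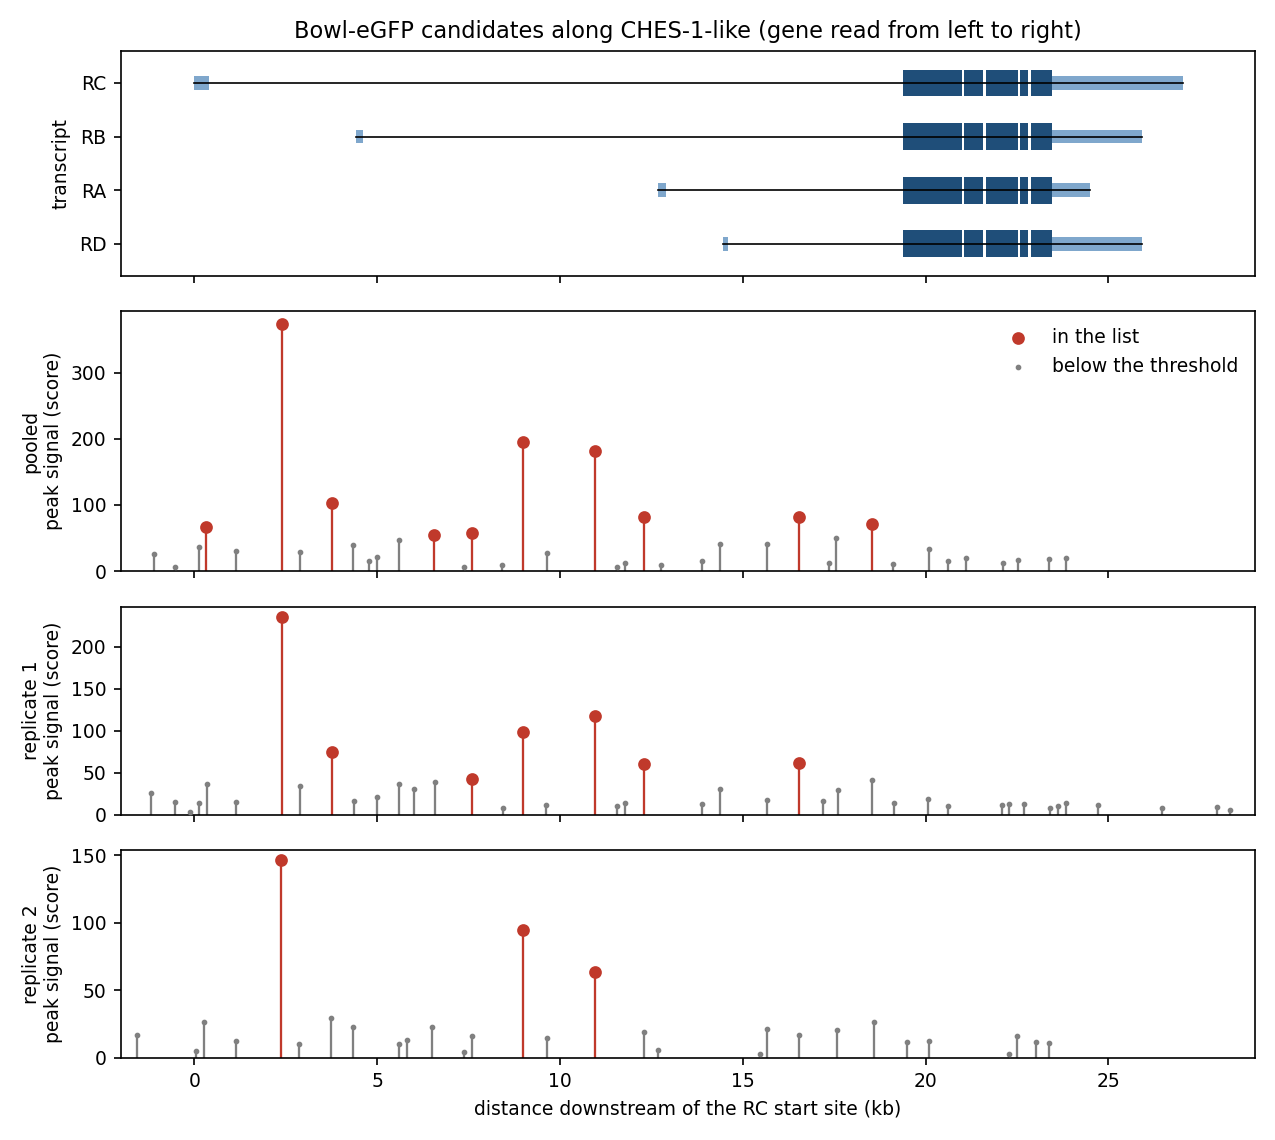
Top panel: the 4 transcripts of CHES-1-like, with the horizontal axis giving the distance downstream of the RC start site in kb (dark boxes, coding exons; light boxes, noncoding exons; lines, introns). Lower panels: the peak signal (score) of each candidate in the pooled, replicate 1 and replicate 2 lists on separate scales (red, listed peaks; grey, candidates below the threshold). The 10 pooled peaks stand before the coding exons, 7 of them are in the replicate 1 list and 3 in the replicate 2 list.

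When a summit within 500 bp of a protein-coding TSS was called promoter, 8 of the 10 CHES-1-like peaks were intronic, 80.0% with a 95% Wilson interval of 49.0 to 94.3%. The other 2 were promoter peaks, 1 of RC and 1 of RA. Over all pooled peaks, 736 (33.5%) were intronic. The interval covers counting error over peaks only, and nothing is read from the contrast, since gene bodies are part of the rule. Neighbouring summits lay 1034 to 4249 bp apart, with a median of 1991 bp.

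The strongest peak (7706884 to 7707083, 200 bp), shown above, had its summit 2396 bp downstream of the RC start. Its signal was 374 in the pooled data, 236 in replicate 1 and 146 in replicate 2, and its −log10 IDR was at the cap of 5 in each. It ranked 55 among the 2198 pooled peaks, and 58 and 57 among the candidates of replicates 1 and 2. At this peak the replicates gave nearly the same rank.

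The second strongest (7700355 to 7700475, 121 bp) lay 8976 bp downstream of the RC start and 4554 bp downstream of the RB start. It had a signal of 195 in the pooled data, 98.1 in replicate 1 and 94.6 in replicate 2, with ranks of 357 and 153 in the replicates. The next (7698263 to 7698572) lay 1714 bp upstream of the RA start, with signals of 182 in the pooled data, 118 in replicate 1 and 63.2 in replicate 2, and ranks of 241 and 330. These 3 were the only CHES-1-like peaks in both replicate lists.

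Of the others, 4 were listed in replicate 1 but not in replicate 2. The summit of the first (7705461 to 7705770) was 653 bp upstream of the RB start, and its signal was 103 in the pooled data, 74.1 in replicate 1 and 29.4 in replicate 2. The peak 2072 bp downstream of the RD start (7692691 to 7693000) had signals of 82.2 in the pooled data, 62.0 in replicate 1 and 16.8 in replicate 2. In replicate 2 it ranked 22290, against 845 in replicate 1. The RA promoter peak (7696940 to 7697249), 391 bp upstream of its start, had signals of 81.2 in the pooled data, 60.2 in replicate 1 and 19.2 in replicate 2. Near the lower end of the list, the peak at 7701648 to 7701957 had 57.1 in the pooled data, 42.3 in replicate 1 and 16.3 in replicate 2. The −log10 IDR of these 4 in replicate 2 was 0.68 or less. In the conservative comparison of the replicates it was 2.59, 0.743, 1.22 and 0.704, in the order given.

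The last 3 were in neither replicate list. The peak nearest the coding exons (7690694 to 7691003) had signals of 71.8 in the pooled data, 40.8 in replicate 1 and 26.4 in replicate 2. It was nevertheless in the conservative list, with a −log10 IDR of 2.02 there. The RC promoter peak (7708903 to 7709212), with its summit 327 bp downstream of the start in exon 1, had 67.2 in the pooled data, 36.9 in replicate 1 and 26.2 in replicate 2. The weakest of the 10 (7702682 to 7702991) had 54.9 in the pooled data, 38.6 in replicate 1 and 22.7 in replicate 2. Its pooled −log10 IDR of 2.06 was the lowest among the 13 forkhead peaks. In the conservative comparison of the replicates, the RC promoter peak had 1.9 and this weakest peak 1.62.

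Replicate support for CHES-1-like was therefore 7 peaks in the replicate 1 list, 3 in the replicate 2 list, 3 in both and 3 in neither. Of all 2198 pooled peaks, 1433 were in the replicate 1 list and 760 in the replicate 2 list, so the replicate 1 list held more there too. The conservative list held 5 of the 10: the 3 in both replicate lists, the peak upstream of the RB start and the one nearest the coding exons. That list was also shorter over the whole genome, with 1557 peaks against 2198. The share in both lists was 3 of 10 (Wilson interval 10.8 to 60.3%) at CHES-1-like and 38.5% (17.7 to 64.5%) over the 13 forkhead peaks, against 640 of 2198 (29.1%) over all pooled peaks. Peaks in neither list were 3 of the 10 at CHES-1-like, 23.1% of the 13 and 29.3% of all pooled peaks. The support at CHES-1-like was close to that of the whole list. Ranks by signal were higher in replicate 1 at 8 of the 10 CHES-1-like peaks, at 10 of the 13 forkhead peaks (76.9%), and at 1237 of 2155 pooled peaks with a candidate in both replicates (57.4%). The 2 replicates had 102124 and 106305 candidates, so the ranks are on lists of different lengths.

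**Figure D2:**
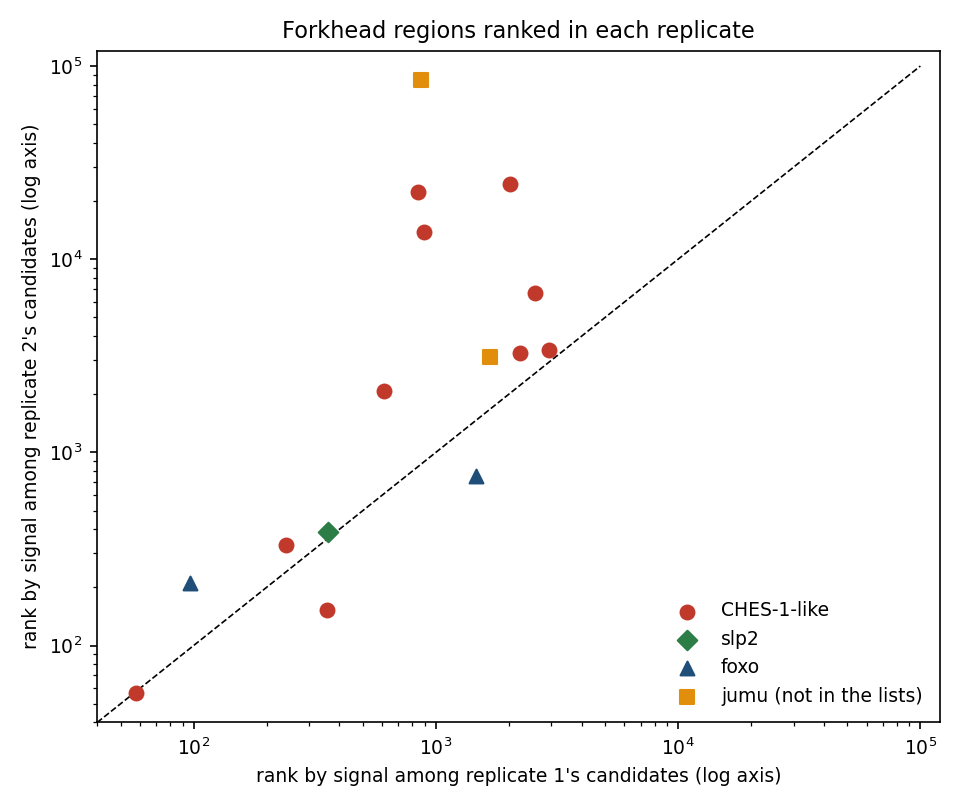
Rank by signal (log axes, 1 the strongest) among the candidates of replicate 1 (horizontal) and replicate 2 (vertical) for the 13 forkhead peaks and the 2 unlisted jumu regions; the dashed line marks equal ranks. Ranks lie between 57 and 385 in both replicates for the 3 strongest CHES-1-like peaks, the slp2 peak and the stronger foxo peak, while 3 CHES-1-like peaks and 1 jumu region have ranks of 13773 to 84975 in replicate 2.

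Among all protein-coding genes, CHES-1-like ranked 3 by the rule used here, with 10 peaks. The genes kirre (a cell adhesion protein of muscle founder cells) and sbb had 11 each, and ftz-f1 (a nuclear receptor) and shn had 9 each. When peaks were given to the nearest protein-coding TSS only, CHES-1-like was first with 10 peaks. Its gene body is short for such a count: 3.7 peaks per 10 kb, against 0.279 at kirre (394149 bp), 1.26 at sbb (79099 bp), 1.54 at shn (58309 bp) and 1.78 at ftz-f1 (50703 bp). Of the 24 genes with at least 5 peaks in the body, HmgZ (4.82 per 10 kb) and bowl itself (4.03) were denser, and the median was 1.29. Shorter genes with fewer than 5 peaks, such as scf (3 peaks in 1.718 kb), are not in this ranking. All gene bodies together held 0.159 peaks per 10 kb. CHES-1-like was chosen for its count, so nothing is read from its density. Among the 752 protein-coding genes at least as long as CHES-1-like, itself included, 267 (35.5%) had a peak in the body and 17 had at least 5.

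**Figure D3:**
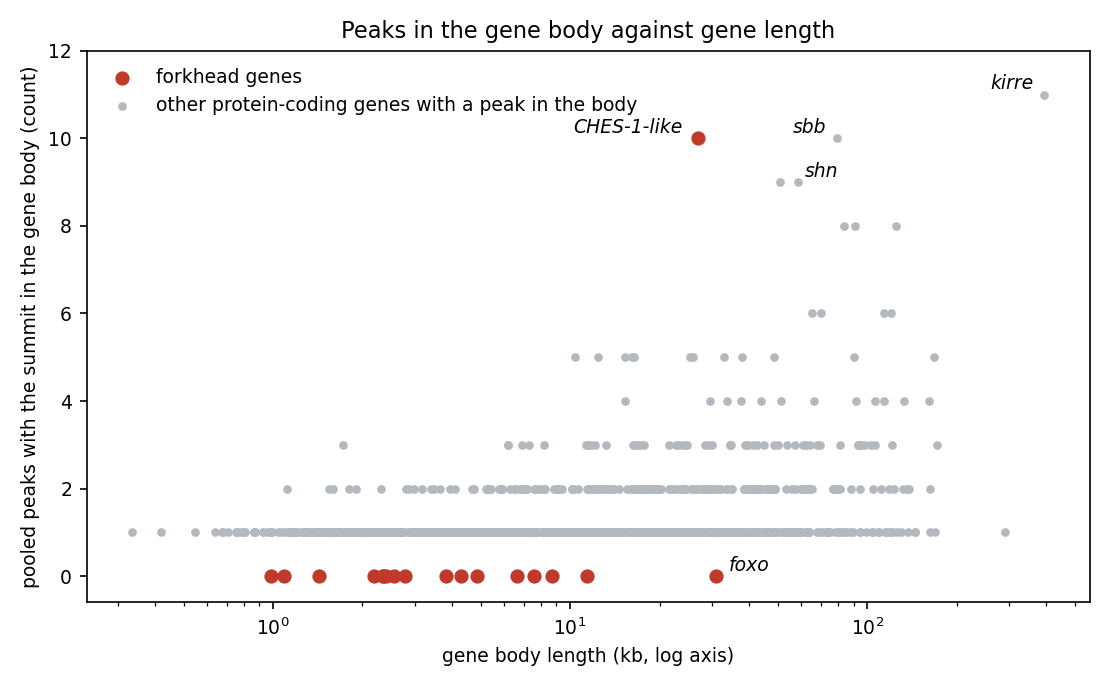
Number of pooled peaks with the summit in the gene body (vertical axis, count) against the length of the gene body in kb (horizontal, log axis) for the 18 forkhead genes (red) and for other protein-coding genes with at least 1 such peak (grey). CHES-1-like has 10 peaks in 27048 bp, while foxo, the longest forkhead gene at 31034 bp, and the others have none.

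The genes whose peaks were spread over feature classes most like those of CHES-1-like were shn and sbb, followed by tai, rdx and bun, which tied. Likeness was the sum of absolute differences in the number of peaks per class, with peaks given to the nearest TSS: 3 for shn, 3 for sbb and 4 each for tai, rdx and bun. Of the tied genes, tai had the strongest peak and is described. The gene shn, which encodes a zinc-finger factor of the Dpp pathway, had 9 peaks, 7 of them intronic, with a strongest signal of 241. For sbb, the count was 7 peaks, 6 of them intronic, with a strongest signal of 189. The gene tai, which encodes a coactivator of the ecdysone receptor, had 6 peaks, 5 of them intronic, with a strongest signal of 168. Peaks in both replicate lists were 3 at CHES-1-like, 1 at shn, 5 at sbb, 0 at tai, 1 at rdx and 0 at bun.

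Candidates give a view of the same genes that does not stop at the threshold. The 8 genes held 224 pooled candidates, of which 13 were listed: 5.80% (Wilson interval 3.42 to 9.67%), against 1.66% of all 132019 candidates. At CHES-1-like, 10 of 54 candidates were listed (18.5%, 10.4 to 30.8%). The gene body held 36 of these candidates and all 10 peaks. The other 18 were assigned by the nearest TSS only, and the farthest lay 45.7 kb downstream of the RC start, past the end of the gene. At the other 7 genes, 3 of 170 were listed (1.76%, 0.602 to 5.06%). In the conservative list 8 of 213 forkhead candidates were listed (3.76%), against 1.23% of all. In replicate 1 it was 9 of 208 (4.33%), against 1.63% of all, and in replicate 2 it was 6 of 170 (3.53%), against 0.726% of all. The rule was set on these counts, so nothing is read from these contrasts. The median signal of the candidates was 23.2 at CHES-1-like and 18.5 at foxo, against 18.7 over all pooled candidates.

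**Figure D4:**
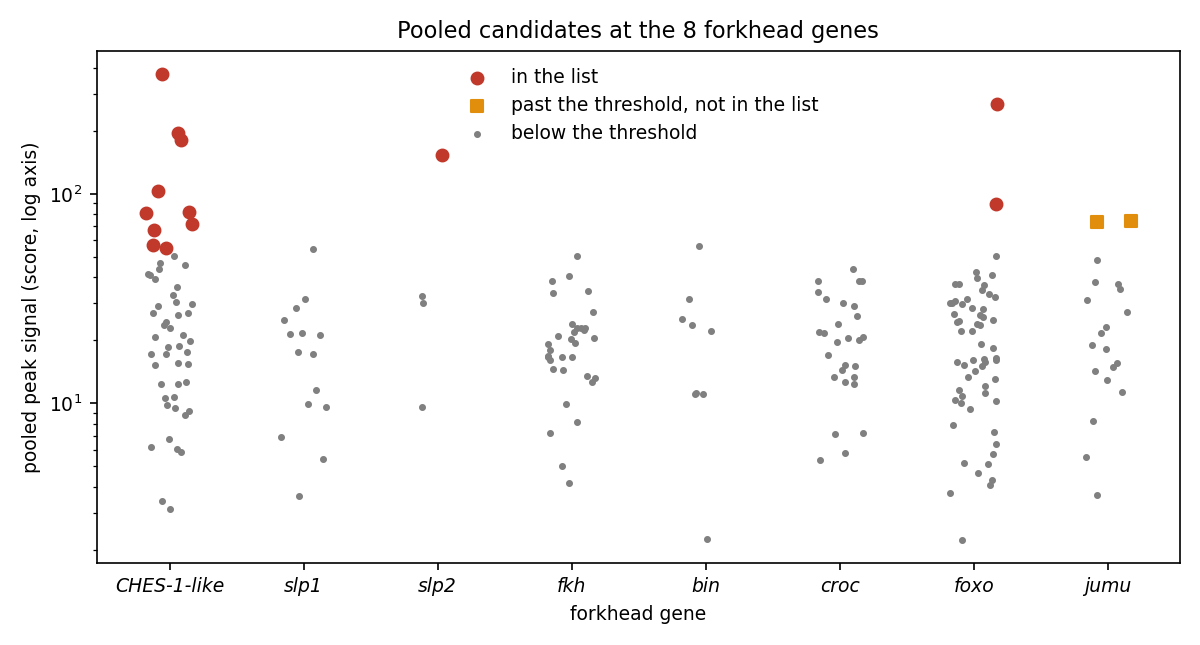
Pooled peak signal (score, log axis) of every candidate at each of the 8 forkhead genes, with points spread sideways so that they can be told apart (red circles, listed peaks; orange squares, past the IDR threshold but not listed; grey, below the threshold). Listed peaks occur at CHES-1-like, slp2 and foxo, and the 2 squares are at jumu.

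The gene jumu (FBgn0015396; 3R, 10350182 to 10361612, plus strand, 11431 bp) encodes the forkhead protein closest to vertebrate FoxN1 and FoxN4 and acts with CHES-1-like in heart progenitors. Of its 20 pooled candidates none was listed, yet 2 were past the threshold. Both had their summits in intron 1 of transcript jumu-RA (10350588 to 10358098), 682 and 6999 bp downstream of the TSS. The first (10350709 to 10351018) had signals of 73.3 in the pooled data, 45.6 in replicate 1 and 26.6 in replicate 2, with a pooled −log10 IDR of 2.34. The second (10357026 to 10357335) had 74.3 in the pooled data, 61.3 in replicate 1 and 7.13 in replicate 2, with a pooled −log10 IDR of 2.26. Both signals were above those of 4 of the listed CHES-1-like peaks. In all, 89 of the 2287 pooled candidates past the threshold (3.89%) were missing from the list, 51 of them on 3R. The sources used here give no reason for their absence. The share of 3R among all candidates past the threshold was not counted, so nothing is read from the 51. The nearest listed peaks lay 17096 bp before and 32275 bp after the gene.

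The genes slp1 (FBgn0003430; 2L, 3825675 to 3827099) and slp2 (FBgn0004567; 2L, 3836840 to 3839185) are neighbouring segmentation genes on the plus strand that encode closely related FoxG-type proteins. One peak lay between them (3832326 to 3832635), with its summit 4359 bp upstream of the slp2 TSS, 5382 bp past the end of slp1 and 6806 bp from the slp1 start. Its signal was 153 in the pooled data, 98.0 in replicate 1 and 58.4 in replicate 2, and it was in all 4 lists, with a pooled rank of 360. It was counted for slp2 because that TSS is the nearer, and distance does not show which of the pair it belongs to. The highest of the 15 slp1 candidates had a signal of 54.3 and a −log10 IDR of 1.53.

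The peak between slp1 and slp2 had TAAACA 15 bp from its summit, and the second jumu region had 3 copies within 41 bp of its summit, one of them at the summit. The 101 bp around these summits are shown because they hold the forkhead core closest to a summit, with capitals as before.
slp2, intergenic peak, chr2L:3832431-3832531: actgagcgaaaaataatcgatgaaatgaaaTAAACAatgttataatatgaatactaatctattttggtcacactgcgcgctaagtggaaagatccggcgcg
jumu, unlisted region, intron 1, chr3R:10357131-10357231: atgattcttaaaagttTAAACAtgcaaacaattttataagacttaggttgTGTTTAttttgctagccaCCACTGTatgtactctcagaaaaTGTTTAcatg
The jumu line also holds the reverse complement of ACAGTGG, 18 bp from the summit. TAAACA was found within 100 bp of the summit at 2 of the 13 forkhead peaks, the slp2 peak and the CHES-1-like peak at 7701648 to 7701957. Its share was 23.2% of all pooled peaks and 14.0% of candidates. For every word, the share of candidates is over 130995 of the 132019. Of the other words, ACAGTGG was found at 3 of the 13 peaks, all at CHES-1-like (10.3% of all peaks and 3.02% of candidates). CACTGTGC was found at 2 CHES-1-like peaks (5.64% and 1.12%) and GAGAGAG at 2 others (6.41% and 2.86%). CACAGTGG was found at 1 (5.64% and 1.16%), and CAGTAGC at none of the 13 (2.41% and 1.91%). These matches describe letters near summits only.

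The gene foxo (FBgn0038197; 3R, 14056945 to 14087978, plus strand) is the longest of the 8, at 31034 bp. Its body held 44 candidates, 14.2 per 10 kb, and no peak. The body of CHES-1-like held 36 candidates, 13.3 per 10 kb, and 10 peaks. CHES-1-like was chosen for its peak count, so nothing is read from this contrast. Both foxo peaks were intergenic and upstream, with summits 3367 and 4545 bp before the foxo TSS and 1178 bp apart. The stronger (14053507 to 14053677, 171 bp), shown above, had signals of 268 in the pooled data, 190 in replicate 1 and 78.9 in replicate 2, was in all 4 lists and ranked 117 in the pooled list. The weaker (14052245 to 14052554) had 89.7 in the pooled data, 48.5 in replicate 1 and 42.4 in replicate 2. It was the only forkhead peak listed in replicate 2 and not in replicate 1. The next gene on the far side, CG9922, is on the minus strand, and its 5′ end lay 16002 bp from the weaker summit, so both summits were between the starts of 2 divergent genes.

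At bin, fkh and croc no candidate reached the threshold. The gene bin (FBgn0045759; 3L, 6990622 to 6994447), which encodes the FoxF-type factor of the visceral mesoderm, came closest. Its best candidate, 1159 bp upstream of the TSS, had signals of 56.2 in the pooled data, 40.4 in replicate 1 and 19.9 in replicate 2, with a pooled −log10 IDR of 1.94. For fkh (FBgn0000659; 3R, 28580976 to 28585264), the FoxA-type factor, the best of 33 candidates lay 184 bp upstream of a TSS. Its signals were 50.3 in the pooled data and 40.4 in replicate 1, with a pooled −log10 IDR of 1.73. In replicate 2 the strongest overlapping region had a signal of 28.0, but its summit lay 244 bp from the pooled one. A replicate 2 candidate with its summit 0.27 kb upstream of that TSS had 12.9. Of the 28 candidates of croc (FBgn0014143; 3L, 21474133 to 21476479), the FoxC-type factor, the one with the highest pooled signal (43.9) had a −log10 IDR of 0.22. The croc candidate with the highest −log10 IDR, 0.953, had a pooled signal of 38.4. By pooled −log10 IDR, the weakest CHES-1-like peak (2.06) lay just inside the threshold, and bin (1.94) and fkh (1.73) just outside. By pooled signal, the bin candidate (56.2) was above that peak (54.9).

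The remaining 10 forkhead genes of the genome, CG32006, fd3F, fd19B, FoxL1, fd59A, fd96Ca, fd96Cb, fd102C, FoxK and FoxP, had no listed peak in any of the 4 lists. Their 80 pooled candidates gave 0 peaks, with a Wilson upper limit of 4.58%. That limit is above the 1.66% listed among all candidates, and 13.0% of all protein-coding genes had a pooled peak. With so few genes and candidates, nothing is read from these counts of 0. Their highest pooled signals ran from 22.1 at fd19B to 43.3 at FoxL1. The gene fd3F, which acts in the differentiation of chordotonal sensory neurons, reached 37.8. None of the 10 had a candidate past the threshold. Over all 18 forkhead genes, 13 of 304 candidates were listed (4.28%, 2.52 to 7.18%), at 3 genes.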

How the data were processed

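Bowl-eGFP ChIP-seq peaks were analysed from 2 biological replicates of whole embryos. The authors deposited ranked and thresholded peak lists per replicate and for pooled data, on dm6 per the labels. Peak signal is a score deposited by the authors, and the authors also gave each region the −log10 of its global IDR, where 2 stands for an IDR of 0.01. The summit offset within each peak is the authors' own value. For the aligner and peak caller, names and versions: not given in the sources used here. Depth is unknown because the files give no read counts, so precision was given only as 95% Wilson intervals, which cover counting error over peaks.

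Summits were annotated with Ensembl release 115 gene models (BDGP6.54). Sequences came from the RefSeq Release 6 genome, where 0 regions lay past the end of an arm and 18 of 18 forkhead genes had the same start and end. A summit within 500 bp of a protein-coding TSS was a promoter summit. Lists were matched by overlaps of at least 1 bp, and where several regions overlapped, the one of highest signal was taken. Python 3.11.15, pandas 2.3.3, numpy 2.4.6, scipy 1.17.1, pyfaidx 0.9.0.4 and matplotlib 3.10.9 were used, and the assignment was tested on simulated gene models.

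The members, words and gene lists were chosen with earlier results of these data known. Genes named were the 8 members, the rest of the forkhead family and the 3 genes most like CHES-1-like, with a tie for the last place ordered by the strongest signal (rdx and bun, tied with tai, are named too); kirre, ftz-f1, HmgZ and bowl were named after their counts were seen, as the genes with as many or as dense peaks. With 1 group of 2 replicates and members chosen from the readout, no test was run. Alternatives changed the gene rule, list, replicate, threshold, promoter width and overlap.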

Additional observations from a re-analysis of the deposited data

How the results depend on the processing

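Of 61 alternative values for the main counts and shares, 47 stayed within 1.5 times the count or inside the interval and 14 moved. Counts and shares have no direction, so none could reverse. With a replicate left out, the other replicate's own list took the place of the pooled list. The 47 include all alternatives for the other forkhead genes, whose count was 0 throughout. The peaks at CHES-1-like, 10 in the pooled list, numbered 5 in the conservative list, 3 to 7 with either replicate left out, 4 at a −log10 IDR of at least 3, and 4 at or above the list's median signal. Peaks at the 8 genes, 13 in the pooled list, numbered 8 in the conservative list, 6 to 9 with either replicate left out, 6 at the stricter IDR and 7 at or above the median signal. The lowest values of both counts (3 and 6) were without replicate 1, that is in the replicate 2 list. That list is the shortest, with 772 peaks against 2198 in the pooled list. Forkhead genes with a peak numbered 1 in place of 3 when only summits in the gene body counted, since the slp2 and foxo peaks are intergenic. The intronic share of CHES-1-like peaks, 80.0%, was 100% in the conservative list, at the stricter IDR and at or above the median signal, none of which held a promoter peak, and 85.7 to 100% with either replicate left out. The listed share of candidates, 5.80%, was 11.2% when the nearest TSS had to lie within 5 kb, which left fewer candidates. With the unlisted candidates past the threshold added back, 4 genes had 15 peaks, 2 of them at jumu. The other forkhead genes had no peak under any alternative. No paired analysis was possible because there is 1 group and no test. Without read counts, depth limits at single peaks are unknown.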

Other observations

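The widths of the forkhead peaks split into a common width and narrower ones. In the pooled list 1965 of 2198 peaks (89.4%) were 310 bp wide with the summit at the centre, and 230 (10.5%) were narrower. Of the 13 forkhead peaks, 10 had the common width, and the 3 narrower ones were the 2 strongest at CHES-1-like and the stronger one at foxo. Over the whole list the median signal was 267 for narrower peaks and 78.4 for those of the common width.

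Other annotated features lie inside CHES-1-like. The noncoding gene lncRNA:CR43287 (X, 7707775 to 7708587, plus strand) lies in intron 1 of RC and overlapped none of the 10 peaks. The transposable element jockey{}80 (X, 7702962 to 7703340) overlapped the edge of the weakest CHES-1-like peak by 30 bp, and no summit lay within it.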
